A study of Oryza sativa Indica Group with 8 samples.

Results

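The short predicted miRNA loci are stretches of the rice genome of 55 bases or less that the authors listed as miRNA loci outside the known set. They were chosen by the end minus the start in the name of each row of the authors' list, and 268 of the 1016 predicted loci met the limit (26.4%). The other 748 loci are called the remaining loci here. The list comes from 8 small RNA libraries of rice panicles, the flower-bearing heads, of the Indica group, made from total RNA with a TruSeq small RNA kit. The libraries are 4 at low_nitrogen and 4 at rec_nitrogen, with 1 library at each level from each of the genotypes Basmati370, KolaJoha, ThururBhog and IC463254. All 8 share the tissue and the protocol, and the labels name no mutation or transgene. The columns of counts in the deposited list carry names that match no label of a sample, so their values were not used, and neither nitrogen level nor genotype was compared. No known hairpin, mature sequence or strand is attached to a predicted locus, and whether the loci lie in genes was not analysed here.

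A plant miRNA is made from a longer transcript that folds back on itself into a hairpin. Dicer-like enzymes cut a short duplex out of the hairpin stem, and an Argonaute protein keeps one strand of it, which guides the silencing of matching transcripts. A hairpin needs room for both strands of the duplex and for the loop between them, so the extent of a predicted locus is one of the few properties that a list of positions gives. Predictions from reads can also take in fragments of other RNAs and short interfering RNAs, which are cut from double-stranded RNA in place of a single hairpin.

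The lengths of the short loci ran up to the limit with no break at it. Length chose these loci, so it is described without a test. The short loci had a median length of 50 bases and a middle range of 46 to 53, and the remaining loci a median of 73 bases and a middle range of 64 to 83. Just inside the limit, 27 loci were 55 bases long, and just outside it, 19 loci were 56 bases long. Most short loci were close to the limit: 96 were 52 to 55 bases long (35.8%) and 94 were 48 to 51 bases long (35.1%). There were 38 of 44 to 47 bases and 33 of 40 to 43 bases. Only 7 loci (2.61%) were 36 to 39 bases long.

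The shortest loci lay on separate chromosomes or far from each other. The shortest of all, 36 bases from 21919648 to 21919684 on chromosome 12, was also the one among the 5 shortest with another predicted locus close by, 45 bases away. The next was 37 bases long, from 6992130 to 6992167 on chromosome 1. A pair of 38-base loci followed, from 11368602 to 11368640 on chromosome 3 and from 13984574 to 13984612 on chromosome 5. The locus listed as the fifth, of 39 bases, ran from 40633755 to 40633794 on chromosome 1 and shared its length with 2 others not listed with it.

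**Figure D1:**
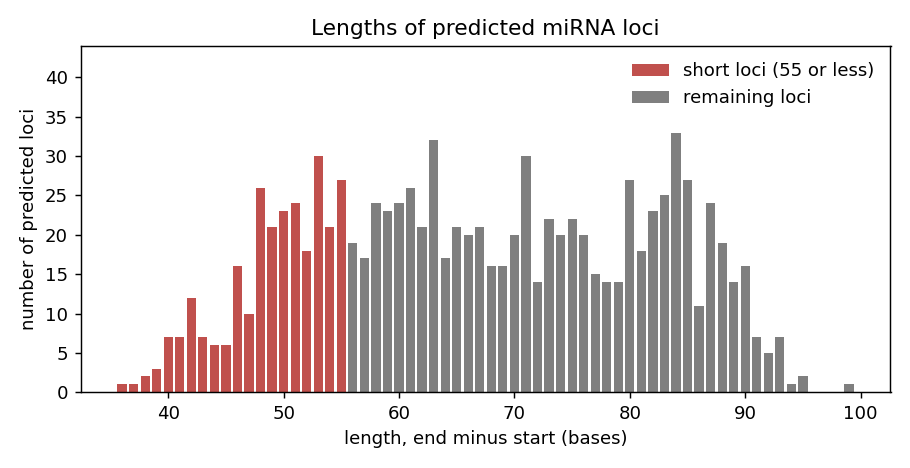
Number of predicted loci (y axis) at each length in bases, taken as end minus start (x axis), with short loci in red and remaining loci in grey. The short loci run from 36 to 55 bases, with 27 loci at 55 bases and 19 at 56, and the counts thin out below 46 bases.

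Short loci were found on all 12 chromosomes. There were 267 on these chromosomes and 1 on the sequence the list names AP008246, from 164825 to 164865. Chromosome 1 held the most, 42, which was 15.7% of the short loci (exact 95% interval 11.5 to 20.6), while it held 9.22% of the remaining loci. Chromosome 10 held the fewest, 9, which was 3.36% of the short loci (1.55 to 6.28), beside 4.28% of the remaining loci. Chromosome 6 went the other way from chromosome 1, with 17 short loci (6.34%, 3.74 to 9.96) beside 11.9% of the remaining loci.

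The share of short loci among predicted loci ranged from 16.0% to 37.8% over the 12 chromosomes, and no test was made over all of them. Short loci made up 37.8% of the 111 predicted loci on chromosome 1 (exact 95% interval 28.8 to 47.5) and 34.1% of the 91 on chromosome 12 (24.5 to 44.7). They made up 16.0% of the 106 on chromosome 6 (9.63 to 24.4) and 20% of the 75 on chromosome 7 (11.6 to 30.8). The intervals of chromosomes 1 and 6 did not overlap at the limit of 55 bases, but did at a limit of 50. These were the highest and the lowest of 12 shares and were picked for that, so no test was made of their difference. The intervals of chromosome 1 and chromosome 6 were also the only ones that did not take in 26.4%, the share over all predicted loci. At a limit of 50 the interval of chromosome 1 (12.9 to 28.5) took in the share over the list, 14.6%, and that of chromosome 6 (2.70 to 13.1) did not. At a limit of 60 neither the interval of chromosome 1 (37.3 to 56.6) nor that of chromosome 6 (18.3 to 35.9) took in the share over the list, 36.9%. The sets at the 3 limits hold largely the same loci.

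**Figure D2:**
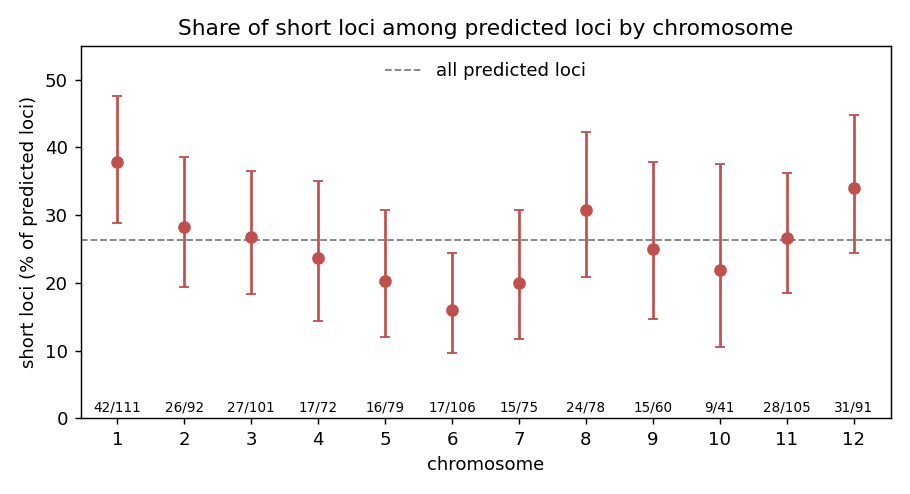
Short loci as a percentage of all predicted loci (y axis) on each of the 12 chromosomes (x axis), with exact 95% intervals that cover counting error alone and the counts printed above the axis. The dashed line is the share over all predicted loci, 26.4%, which lies below the interval of chromosome 1 and above that of chromosome 6.

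Set against the stretch of each chromosome between its outermost listed known or predicted positions, chromosome 12 had the most short loci, 1.14 per Mb. Chromosomes 11 and 1 followed with 0.992 and 0.973 per Mb, and chromosome 10 had the fewest, 0.400 per Mb. The order of the remaining loci was alike in part. They were also fewest on chromosome 10, with 1.42 per Mb, and frequent on chromosomes 11 and 12, with 2.73 and 2.21 per Mb. On chromosome 1 they reached only 1.60 per Mb. They were most frequent on chromosome 6, with 2.91 per Mb, where short loci reached 0.555 per Mb. The typical length of a short locus differed little, with chromosome medians between 48 bases on chromosomes 3 and 9 and 53 on chromosome 6.

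The spacing of short loci varied widely along the chromosomes. The median distance between one short locus and the next was 976 kb, with a middle range of 340 to 1740 kb over 255 distances. Between one remaining locus and the next it was 269 kb, with a middle range of 73.6 to 694 kb over 732 distances. There are 267 short and 744 remaining loci on these chromosomes, so the spacings and the numbers of filled bins of the 2 sets cannot be compared directly. Of 376 bins of 1 Mb, 189 held at least 1 short locus and 187 held none, while 305 held at least 1 remaining locus. A single short locus was found in 132 bins and 2 short loci in 43. The widest stretch without a short locus was 8.63 Mb long, from 2178089 to 10807188 on chromosome 10, followed by 8.40 Mb from 9502135 to 17900292 on chromosome 7.

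A small number of bins held several short loci. The 14 bins with 3 or more contained 49 short loci in all. The fullest were on chromosome 12, where the bin from 21 to 22 Mb held 6 short and 8 remaining loci and the bin from 24 to 25 Mb held 5 short and 11 remaining loci. With the 4 short and 2 remaining loci between 26 and 27 Mb, 3 of the 28 bins of chromosome 12 contained 15 of its 31 short loci (48.4%) and 21 of its 60 remaining loci (35%). On chromosome 11 the bin from 24 to 25 Mb held 4 short and 14 remaining loci. The 3 bins of chromosome 12 and the bin of chromosome 11 were picked for their counts, and no test was made of them.

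The share of loci with another predicted locus nearby was lower among short than among remaining loci, and the difference did not pass the test. Another predicted locus lay within 10 kb of 35 of 267 short loci (13.1%, exact 95% interval 9.30 to 17.8) and of 125 of 744 remaining loci (16.8%, 14.2 to 19.7). The difference, short minus remaining, was -3.69 percentage points (95% interval -8.23 to 1.53, adjusted p = 0.51, 2-sided Fisher's exact test, Benjamini-Hochberg over 3 shares). The interval reaches from a share several points lower among short loci to one slightly higher. The distance to the nearest other predicted locus had a median of 116 kb for short loci, with a middle range of 31.2 to 288 kb. For remaining loci the median was 88.9 kb and the middle range 21.9 to 232 kb. Loci within one cluster share a neighbourhood, and a close pair of a short and a remaining locus enters both shares, so each p describes the lists alone and measures no spread between samples.

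**Figure D3:**
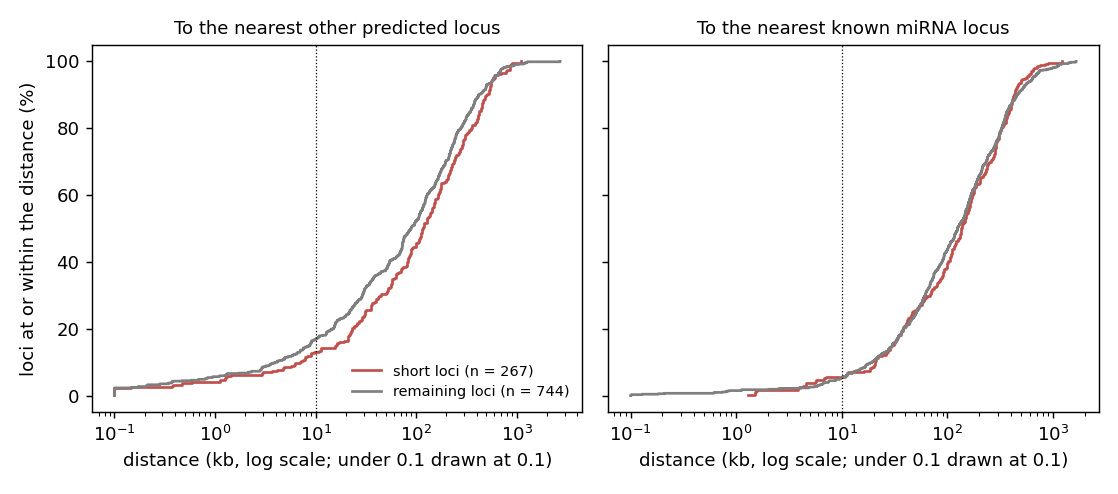
Percentage of loci (y axis) whose nearest other predicted locus (left) or nearest known miRNA locus (right) lies within the distance on the x axis (kb, log scale; values under 0.1 kb are drawn at 0.1), for 267 short loci in red and 744 remaining loci in grey. The dotted line marks 10 kb. On the left the red curve lies below the grey one over most of the range (medians 116 and 88.9 kb); on the right the curves lie close together (medians 135 and 125 kb), and the red one begins at 1.28 kb.

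The 35 short loci with a neighbour were in 29 runs, chains of predicted loci each at most 10 kb from the next. There were 68 runs in the whole list. Of the 29 runs, 18 had 2 loci, 8 had 3 and 3 had 5. No run held more than 2 short loci; 6 runs held 2, and 3 runs consisted of short loci alone. Short loci with a neighbour had a median length of 48 bases (middle range 42.5 to 52, n = 35), and those without had a median of 50 bases (47 to 53, n = 233).

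Runs of 3 or more loci held 14 of 267 short loci (5.24%, exact 95% interval 2.90 to 8.64) and 40 of 744 remaining loci (5.38%, 3.87 to 7.25). The difference was -0.13 percentage points (95% interval -2.94 to 3.51, adjusted p = 1, 2-sided Fisher's exact test, Benjamini-Hochberg over 3 shares). These loci came from 15 runs, and all loci of a run count alike. The test and the interval treat each locus as separate, so the interval may be too narrow.

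**Figure D4:**
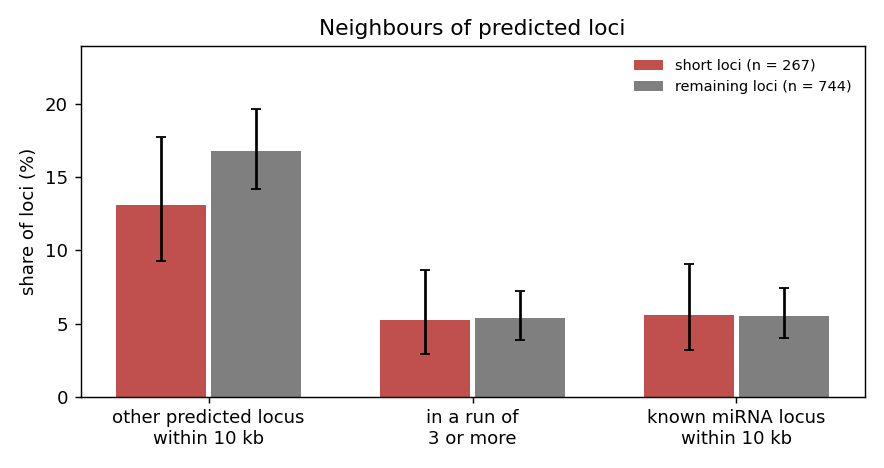
Share of loci (y axis, %) with another predicted locus within 10 kb, in a run of 3 or more predicted loci, and with a known miRNA locus within 10 kb, for 267 short loci in red and 744 remaining loci in grey; bars carry exact 95% intervals of counting error. The intervals of the 2 sets overlap in each comparison, at 13.1% and 16.8%, 5.24% and 5.38%, and 5.62% and 5.51%.

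Of the 4 runs of 5 loci, 3 held short loci, as did 11 of the 15 runs of 3 or more. Short loci made up 26.4% of the whole list, but a run has several places for a short locus. A share of runs can therefore not be set directly against a share of loci. Counted by locus, runs of 3 or more held 5.24% of short and 5.38% of remaining loci. No test was made of the runs of 5. On chromosome 3 the run of 5 held 2 short loci. A 41-base locus from 27624940 to 27624981 opened the run, and a 42-base locus from 27635804 to 27635846 lay between loci of 84 and 87 bases. On chromosome 2 a 48-base locus from 1518879 to 1518927 opened a run whose other members were 57 to 74 bases long. On chromosome 11 a 39-base locus from 24780467 to 24780506 was the third member, among loci of 60 to 83 bases. In each of these 3 runs the short loci stood beside remaining loci.

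**Figure D5:**
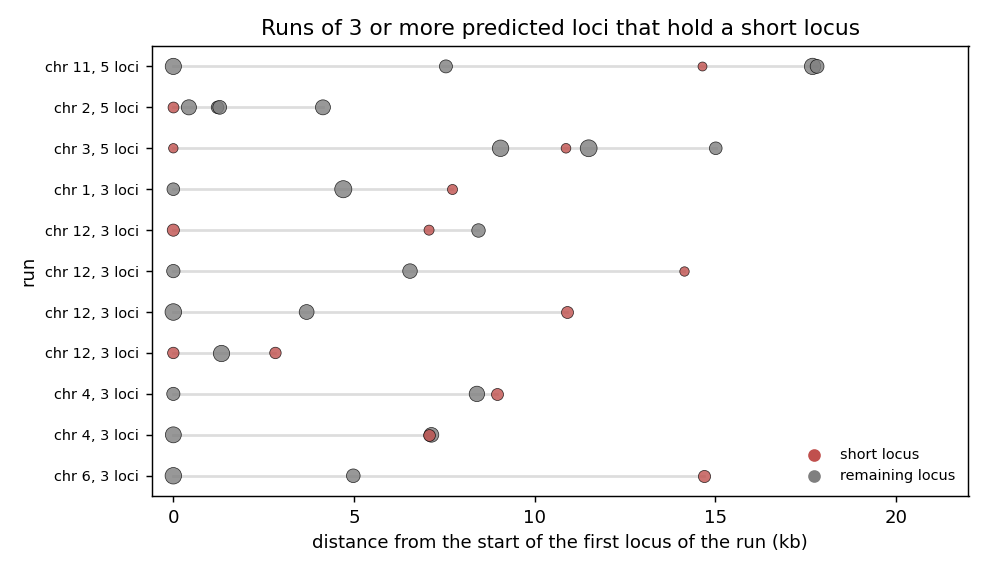
The 11 runs of 3 or more predicted loci that hold a short locus, one per row, labelled by chromosome and number of loci; the x axis is the distance in kb from the start of the first locus, and the circle's area grows with the length of the locus. Short loci are red and remaining loci grey, and the 14 short loci stand at an end of the run in some rows and inside it in others.

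Neighbours of short loci were of either kind. Among the 92 pairs of consecutive predicted loci within 10 kb of each other, 4 joined 2 short loci, 31 joined a short and a remaining locus and 57 joined 2 remaining loci. Of the 39 neighbour positions beside a short locus in these pairs, 8 (20.5%) were taken by another short locus, beside 26.4% short loci in the whole list. In the 31 mixed pairs the remaining member had a median length of 74 bases and a range of 58 to 91. A pair of remaining loci each entered 2 mixed pairs, and of the 29 distinct ones 11 were 80 bases or longer (37.9%), beside 34.8% of all remaining loci. With pairs that have a remaining locus between them also counted, 5 pairs of short loci lay within 10 kb.

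The 5 pairs of short loci fell on 4 chromosomes. On chromosome 11 a pair of 42-base loci, from 9836070 to 9836112 and from 9836163 to 9836205, lay 51 bases apart. On chromosome 2 loci of 50 and 46 bases, from 20310169 to 20310219 and from 20310267 to 20310313, lay 48 bases apart. On chromosome 7 loci of 53 and 48 bases, starting at 2253252 and 2254427, lay 1122 bases apart. The other 2 pairs were on chromosome 12. Its loci of 51 bases each, starting at 24377843 and 24380668, lay 2774 bases apart with an 83-base locus between them, and its loci of 55 and 44 bases, starting at 21716202 and 21723277, lay 7020 bases apart. Members had equal lengths in the pair on chromosome 11 and in the first of the pairs on chromosome 12.

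Another predicted locus lay within 200 bases of 7 of 267 short loci (2.62%) and of 21 of 744 remaining loci (2.82%). Short loci were part of 5 of the 14 pairs of predicted loci within 200 bases. The closest was on chromosome 4, where a 53-base locus ended at 21173917 and a 71-base locus started at 21173918, the next position. On chromosome 12 the 36-base locus followed a 60-base locus that ended at 21919603. On chromosome 1 a 52-base locus from 20083088 to 20083140 lay 147 bases before a locus of 84 bases. The pairs of short loci on chromosomes 2 and 11 were the other 2. From the start of the first locus to the end of the second, the 5 pairs covered 125 to 283 bases, beside 125 to 322 bases for the 9 pairs of remaining loci. Each of these extents is longer than the 99 bases of the longest single predicted locus. Whether such a pair belongs to one precursor was not tested.

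No difference in nearness to known miRNAs passed the test. A known locus lay within 10 kb of 15 of 267 short loci (5.62%, exact 95% interval 3.18 to 9.10) and of 41 of 744 remaining loci (5.51%, 3.98 to 7.40). The difference was 0.11 percentage points (95% interval -2.77 to 3.83, adjusted p = 1, 2-sided Fisher's exact test, Benjamini-Hochberg over 3 shares). The median distance to the nearest known locus was 135 kb for short loci, with a middle range of 46.8 to 289 kb, and 125 kb for remaining loci, with a middle range of 50.98 to 284 kb.

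No short locus overlapped a known miRNA or came within 1 kb of one. That is 0 of 267, which allows a share of up to 1.12% by the limit of 3 counts and up to 1.37% by the exact 95% interval. Of the remaining loci, 12 of 744 (1.61%) lay within 1 kb, of which 2 overlapped a known locus. The predicted loci were listed as lying outside the known set, so few overlaps could be found in either set. Within 1 kb the difference did not pass the test either (p = 0.043 before adjustment, adjusted p = 0.13, Fisher's exact test). The nearest was a 55-base locus from 7862348 to 7862403 on chromosome 6, which lay 1283 bases from a locus of the 24-nt miRNA URS00005EC838 at 7861042 to 7861065. A further 4 short loci had a known miRNA 1520 to 1565 bases away. Those on chromosomes 10 and 8, both 42 bases long, from 10807188 to 10807230 and from 22325694 to 22325736, lay 1520 and 1522 bases from loci of the same 22-nt miRNA, URS00004B8C6C. Both lay before the known miRNA in the direction of its strand. Whether they are copies of one sequence was not tested, and each was counted separately in the shares.

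The known miRNAs near short loci were mostly ones with many listed positions, as were those of the known loci at large. Of the 15 short loci with a known locus within 10 kb, 12 (80%, exact 95% interval 51.9 to 95.7) had as their nearest a miRNA with 10 or more loci. This was so for 23 of 41 remaining loci (56.1%, 39.7 to 71.5), and 63.8% of the 1205 known loci on these chromosomes belonged to such miRNAs. The intervals overlapped, and no test was made. The 15 short loci had 9 known miRNAs between them as their nearest. URS000038C249, which has 352 of the 1233 known loci of the whole annotation, was the nearest to 4 of the 15. The only known miRNA with a single locus in this set was URS00003FDA6C, a 24-nt miRNA 4314 bases from a 46-base locus that started at 14944719 on chromosome 2. None of the 15 short loci near a known miRNA had another predicted locus within 10 kb, and 3 of the 41 remaining loci near one did. Over all loci on these chromosomes the shares with such a neighbour were 13.1% of short and 16.8% of remaining loci. With so few loci near a known miRNA, no test was made.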

How the data were processed

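The deposited files are an annotation of known miRNAs and 2 tables over 8 small RNA libraries. Per the series' design text, adapters and other non-coding RNA were removed, and miRNAs were then quantified and searched for against a japonica reference. Tools named in the submitters' processing notes are Bowtie, Subread, fastp and bedtools. The predictor, the tool versions and the build are not given in the sources. The deposited tables hold 16 columns whose names match no label of a sample. None of their values was used, so library depths and the planned comparison of nitrogen levels are not given. The positions used are the starts and ends that the authors deposited in the annotation and in the row names.

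Length is end minus start; whether starts count from 0 or 1 is not stated, so it may be short by 1 base. Distance is the start of the later locus minus the end of the earlier one, on either strand. The annotation and the list were taken to share a build because their sequence names match. Tests were 2-sided Fisher's exact tests on chromosomes 1 to 12, adjusted over 3 shares. Share intervals are exact Clopper-Pearson and intervals of differences Newcombe, both 95% and for counting error alone. The rule for named loci took pairs of short loci within 1 kb, short loci in runs of 5, short loci within 1 kb of a known miRNA (there were 0) and the 5 shortest. Other loci, bins and chromosomes named were chosen after their values were seen. The members and lists were chosen with earlier results of these data known. The code was tested on simulated data. Versions were Python 3.11.15, SciPy 1.17.1, statsmodels 0.14.6, pandas 2.3.3, NumPy 2.4.6 and Matplotlib 3.10.9.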

Additional observations from a re-analysis of the deposited data

How the results depend on the processing

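The limit of 55 bases took in 268 loci; a limit of 50 took in 148 and a limit of 60 took in 375. No paired analysis was possible because no value of a library was used. None of the 13 recomputed comparisons of the 3 shares passed the threshold (adjusted p from 0.093 to 1, Fisher's exact test). The lowest was for predicted neighbours within 50 kb, at 30.3% of short and 37.8% of remaining loci. The shares with a predicted neighbour and in runs of 3 or more stayed lower for short loci in all of their settings. These settings rest largely on the same loci, so the constant direction is no independent check. The difference in nearness to a known miRNA changed sign, to -1.61 percentage points within 1 kb, -0.84 with single-locus known miRNAs alone and -2.50 at a limit of 50 bases; the cause was not tested. The 5 pairs of neighbouring short loci became 2 within 1 kb, 17 within 50 kb, 2 at a limit of 50 and 12 at a limit of 60. A narrower window admits fewer pairs, and a lower limit leaves fewer loci to pair. The percentage of short loci that lay on each chromosome stayed within its interval at 55 bases in all 24 recomputed values, with a largest shift of 4.11 points. The loci at a limit of 50 are all among those at 55, and those among the loci at 60. The recomputed percentages therefore rest largely on the same loci and are no independent check. Short loci as a percentage of all predicted loci were recomputed for chromosomes 1 and 6 alone, an alternative chosen after seeing the data. They made up 19.8% on chromosome 1 (12.9 to 28.5) and 6.60% on chromosome 6 (2.70 to 13.1) at a limit of 50, beside 14.6% over the whole list. At a limit of 60 they made up 46.8% (37.3 to 56.6) and 26.4% (18.3 to 35.9) on these chromosomes, beside 36.9%. Sequencing depth may limit which loci could be listed, and its part was not tested.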
